A study of Mus musculus with 4 samples.

Results

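Toll-like receptors 1 to 9 and Cd14 were followed in mouse colon as 10 genes, Tlr1, Tlr2, Tlr3, Tlr4, Tlr5, Tlr6, Tlr7, Tlr8, Tlr9 and Cd14, taken by gene name from the array annotation with every probe of each gene. They are 10 of 30139 genes on the array, with 14 of 39429 probes and 23 of 43020 spots, and at least 1 array measured 11 of the 14 probes well above background. The study compared C57BL/6 mice that were wildtype (WT) or homozygous for a Pla2g10 knockout (X-KO), without treatment (naive) or at day 7 of 1% (w/v) dextran sulfate sodium (DSS) in the drinking water. Pla2g10 encodes group X secreted phospholipase A2, which releases fatty acids from phospholipids, and DSS is a detergent-like polymer that damages the colon epithelium and causes colitis. Each of the 4 groups was 1 single-colour array hybridised with RNA mixed from the colons of 3 mice, made from 200 ng of total RNA, so no group had a replicate. The labels give 9 weeks and male under swapped tags, while the housing protocol gives 8 weeks. The construction of the knockout allele was not given in the sources used here.

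Toll-like receptors are membrane proteins that bind conserved molecules of microbes and start inflammatory signalling. Receptors of the cell surface recognise bacterial lipopeptides (Tlr1, Tlr2 and Tlr6), lipopolysaccharide (Tlr4) and flagellin (Tlr5), while receptors of endosomes recognise nucleic acids (Tlr3, Tlr7, Tlr8 and Tlr9). Cd14 is a lipid-anchored co-receptor of monocytes and macrophages that passes lipopolysaccharide to Tlr4. In the colon both epithelial cells and leukocytes carry such receptors, and the tissue borders on a dense bacterial flora.

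The 60-base probes for Tlr1 and Tlr2 are shown because these related receptors share a stretch of sequence and could be suspected of sharing signal. In the best alignment without gaps, 29 of 47 aligned bases were identical (61.7%), and the identical bases are in capitals. The Tlr1 probe lies at chr5:65316115-65316174 and the Tlr2 probe at chr3:83640344-83640403, both on the minus strand of mm9, the build of the array annotation. No gene annotation of mm9 was used here, so the exon was not assigned.
Tlr1 probe: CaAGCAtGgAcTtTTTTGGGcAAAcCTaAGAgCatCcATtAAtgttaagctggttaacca
Tlr2 probe: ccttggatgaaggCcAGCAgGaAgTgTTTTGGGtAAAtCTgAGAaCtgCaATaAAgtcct

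Promoter sequence is shown for Tlr2, Tlr5 and Tlr6, because these receptors differed in how their signals stood after DSS. Tlr2 was higher in both genotypes but below 2-fold, and Tlr5 went in opposite directions. Tlr6 was higher in both genotypes and past 2-fold in X-KO only. The RefSeq promoter table used here (GRCm38.p6) was matched by 7 of the 10 genes, giving 9 windows of 250 bases before a start. Both strands were searched for GGG and CC with 5 bases between them, a loose form of the site bound by NF-κB, and for a pair of GAAA with 2 bases between them, the core of the interferon-stimulated response element. The first was found in 4 of the 9 windows and the second in 1, against 45.8% and 2.98% of 32851 windows of all genes. Overlapping matches were merged into 1 stretch, which is in capitals.
Tlr2, chr3:83841609-83841858, minus strand: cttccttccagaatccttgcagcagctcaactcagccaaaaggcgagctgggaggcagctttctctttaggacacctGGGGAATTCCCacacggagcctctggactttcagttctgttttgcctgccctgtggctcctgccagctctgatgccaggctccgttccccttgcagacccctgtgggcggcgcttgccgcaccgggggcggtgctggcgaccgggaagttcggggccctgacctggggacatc
Tlr5, chr1:182954538-182954787, plus strand: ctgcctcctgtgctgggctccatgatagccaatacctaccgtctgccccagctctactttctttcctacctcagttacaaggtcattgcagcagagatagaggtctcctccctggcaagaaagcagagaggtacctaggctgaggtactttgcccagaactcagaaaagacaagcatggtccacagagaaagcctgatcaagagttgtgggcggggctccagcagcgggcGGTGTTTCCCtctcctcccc
Tlr6, chr5:64959167-64959416, minus strand: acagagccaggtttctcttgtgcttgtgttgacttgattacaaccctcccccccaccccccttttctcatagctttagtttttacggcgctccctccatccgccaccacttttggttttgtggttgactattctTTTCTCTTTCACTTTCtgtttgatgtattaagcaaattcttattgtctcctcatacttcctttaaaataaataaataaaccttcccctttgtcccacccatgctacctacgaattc
Tlr6, chr5:64960049-64960298, minus strand: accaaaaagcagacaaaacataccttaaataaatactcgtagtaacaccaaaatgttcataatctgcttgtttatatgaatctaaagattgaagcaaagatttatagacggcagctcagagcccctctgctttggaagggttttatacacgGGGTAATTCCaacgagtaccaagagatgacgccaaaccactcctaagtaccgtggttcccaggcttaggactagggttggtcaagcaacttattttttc
The capitals mark the NF-κB letters in Tlr2 (173 to 163 bases before the start), in Tlr5 (20 to 11) and in the last Tlr6 window (99 to 90), and the interferon letters in the other Tlr6 window (116 to 101). A match describes letters in the window and not a bound site.

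Signals are given as relative signal, the spot's processed intensity divided by the 75th percentile of its array, with the software's error of 1 SD after ±. This scanner error is about 10% for a single bright spot. It covers the noise of the array and not the spread between mice. For Tlr2 it was divided by the square root of its 10 spots, which takes spot errors as independent and gives about 3.2%. Levels of different probes depend on the probe and were not compared with each other.

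Cd14 was higher with DSS in both genotypes. Its relative signal was 2.12 ± 0.212 in WT naive, 2.06 ± 0.206 in X-KO naive, 4.28 ± 0.428 in WT DSS and 5.80 ± 0.580 in X-KO DSS. Both naive pools lay below both DSS pools, and the naive pools differed by less than the scanner error. DSS over naive was 2.02-fold in WT (log2 1.02, scanner SE 0.20) and 2.81-fold in X-KO (log2 1.49, scanner SE 0.20). Of the 22161 genes measured, 3.44% were 2-fold higher with DSS in WT and 5.67% in X-KO, the background against which the counts of receptors are read. In bulk tissue, more cells of a type and more RNA per cell cannot be told apart. Cd14 is a marker of monocytes and macrophages, and the summed relative signal of 15 measured of 16 other markers of those cells was 24.3 in WT naive, 25.6 in X-KO naive, 29.8 in WT DSS and 44.9 in X-KO DSS. The Itgam probe alone made up 12.89, 14.02, 12.80 and 12.26 of these sums in the same order, and was not higher with DSS in either genotype. The sums therefore understate the ratios of the other markers. All 15 were well above background on every array and Ly6c2 on none. Their part in the Cd14 values was not tested.

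**Figure D1:**
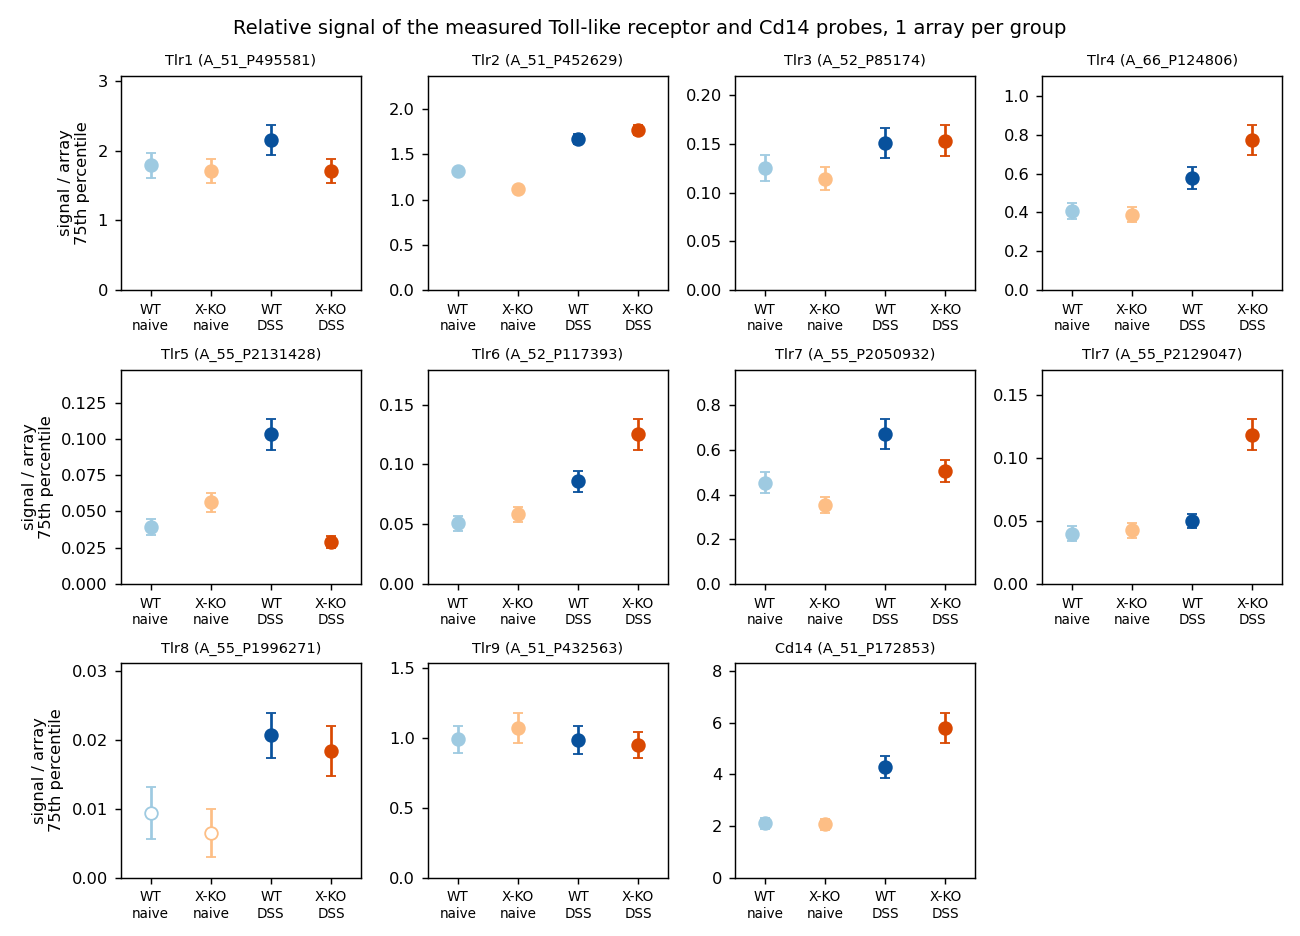
Relative signal (processed signal over the array's 75th percentile, linear axes from 0) of the 11 probes measured on at least 1 array, in WT naive, X-KO naive, WT DSS and X-KO DSS colon, 1 array of a 3-mouse pool each. Bars are the scanner error of 1 SD and open circles are not well above background. Cd14 was highest in X-KO DSS (5.80) and Tlr5 was lowest there (0.029).

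Tlr4, the lipopolysaccharide receptor that takes its ligand from Cd14, moved in the same direction with smaller ratios. Its measured probe (chr4:66503470-66503529, plus strand, mm9) gave 0.406 ± 0.0408 in WT naive, 0.389 ± 0.0390 in X-KO naive, 0.578 ± 0.0579 in WT DSS and 0.772 ± 0.0772 in X-KO DSS. The order was the same as for Cd14, with the naive pools again within the scanner error of each other. The DSS pool stood 1.42-fold above the naive pool in WT (log2 0.51, scanner SE 0.20) and 1.99-fold in X-KO (log2 0.99, scanner SE 0.20), just short of 2-fold. A second Tlr4 probe, 86.5 kb away and tied to another transcript, was not well above background on any array.

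The receptors for lipopeptides differed among themselves. Tlr2, which pairs with Tlr1 or Tlr6, was spotted 10 times on each array and is therefore the most precisely measured of the 10 genes. Its relative signal was 1.31 ± 0.0415 in WT naive, 1.12 ± 0.0354 in X-KO naive, 1.67 ± 0.0528 in WT DSS and 1.76 ± 0.0558 in X-KO DSS. The 10 spots had an SD of 0.038 to 0.052 on the log2 scale. The ratio of DSS to naive was 1.27-fold in WT (log2 0.35, scanner SE 0.06) and 1.58-fold in X-KO (log2 0.66, scanner SE 0.06), so both differences exceeded the noise between spots while staying under 2-fold.

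Tlr6, the partner of Tlr2 for diacylated lipopeptides, was higher with DSS in both genotypes. Its relative signal was 0.0507 ± 0.0060 in WT naive, 0.0582 ± 0.0066 in X-KO naive, 0.0860 ± 0.0089 in WT DSS and 0.125 ± 0.013 in X-KO DSS. The DSS pools exceeded the naive pools 1.70-fold in WT (95% scanner interval of the log2 ratio 0.32 to 1.21) and 2.15-fold in X-KO (0.67 to 1.54). The naive pools lay next to each other and below both DSS pools.

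Tlr1, the partner of Tlr2 for triacylated lipopeptides and a neighbour of Tlr6 (probes 28.2 kb apart on chromosome 5), did not share that pattern. Its relative signal was 1.79 ± 0.179 in WT naive, 1.71 ± 0.171 in X-KO naive, 2.15 ± 0.215 in WT DSS and 1.71 ± 0.171 in X-KO DSS. The WT DSS pool was the highest, and the other pools lay within the scanner error of each other. The log2 ratio of DSS over naive was 0.26 in WT and 0.00 in X-KO, each with a 95% scanner interval that includes 0 (-0.14 to 0.66 and -0.40 to 0.40).

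Tlr5, the receptor for flagellin, was the receptor whose signal went in opposite directions with DSS. Its probe (chr1:184906031-184906090, plus strand, mm9) gave 0.0393 ± 0.0052 in WT naive, 0.0563 ± 0.0065 in X-KO naive, 0.103 ± 0.011 in WT DSS and 0.029 ± 0.0042 in X-KO DSS. WT DSS was the highest pool and X-KO DSS the lowest. With DSS the signal was 2.63-fold higher than naive in WT (log2 1.39, scanner SE 0.24) and 1.94-fold lower in X-KO (log2 -0.96, scanner SE 0.27). The difference between these responses, X-KO minus WT, was -2.35 on the log2 scale with a scanner SE of 0.36. It was not tested, since 1 array per group leaves no error for it. This probe is dim, a single spot, and the only probe for Tlr5. The 17 colon epithelium markers had a median log2 ratio of 0.18 in WT, with 11 above 0. In X-KO their median was -0.38, with 1 above 0. Their part in the Tlr5 values was not tested.

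Among the endosomal receptors, Tlr3, which binds double-stranded RNA, gave relative signals of 0.126 ± 0.013 in WT naive, 0.114 ± 0.012 in X-KO naive, 0.151 ± 0.015 in WT DSS and 0.154 ± 0.016 in X-KO DSS. Its log2 ratio of DSS over naive was 0.26 in WT and 0.42 in X-KO (scanner SE 0.21 each). Both DSS pools lay above both naive pools, with an interval that includes 0 in WT (-0.15 to 0.68).

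Tlr9, the receptor for unmethylated CpG DNA, was nearly level. Its relative signal was 0.990 ± 0.0991 in WT naive, 1.07 ± 0.107 in X-KO naive, 0.988 ± 0.0988 in WT DSS and 0.951 ± 0.0952 in X-KO DSS. All 4 pools lay within about 1 scanner error of their neighbours, and the DSS over naive log2 ratios were -0.00 in WT and -0.17 in X-KO (95% scanner intervals of -0.40 to 0.40 and -0.57 to 0.23). With median scaling in place of the 75th percentile the sign in WT turned to 0.14.

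Tlr7, a receptor for single-stranded RNA, was represented by 3 probes that did not give the same picture. The probe kept for the gene (chrX:163742863-163742922, minus strand, mm9) had relative signals of 0.454 ± 0.0455 in WT naive, 0.352 ± 0.0354 in X-KO naive, 0.670 ± 0.0671 in WT DSS and 0.505 ± 0.0506 in X-KO DSS. DSS over naive was 1.48-fold in WT and 1.44-fold in X-KO (log2 0.56 and 0.52), and both X-KO pools lay below the WT pool of the same treatment. The second probe (chrX:163743146-163743205) gave 0.0399 ± 0.0058, 0.0425 ± 0.0057, 0.0497 ± 0.0057 and 0.118 ± 0.012 in the same order, so that X-KO DSS alone stood apart, 2.78-fold above X-KO naive (log2 1.48, scanner SE 0.25). The probes therefore disagree on the direction of X-KO over WT with DSS (log2 -0.41 and 1.25). By probe, 4.81% of 28719 were 2-fold higher and 2.08% lower in that comparison, and 5.26% were higher and 5.25% lower in X-KO DSS over X-KO naive. The third probe, tied to another transcript, was not well above background on any array.

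Tlr8, whose probes lie beside those of Tlr7 (62.2 kb between the measured probes), was at the limit of detection. The measured probe was well above background with DSS only (0.0207 ± 0.0032 in WT and 0.0184 ± 0.0036 in X-KO). In the naive pools it read 0.0094 ± 0.0038 and 0.0065 ± 0.0034, not well above background. Measured against the lowest signal well above background on the naive array, the log2 ratio of DSS over naive was at least 0.33 in WT and at least 0.26 in X-KO. These bounds leave out the scanner error. Taken from the naive readings themselves, the scanner interval of the log2 ratio ran from -0.086 to 2.37 in WT. In X-KO it ran from -0.096 to 3.10, so a level signal was not excluded in either genotype. A further Tlr8 probe was not well above background on any array.

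Counted at 2-fold, 2 of the 10 genes were higher with DSS in WT (Cd14 and Tlr5) and 0 lower, against 3.44% and 5.14% of all genes. In X-KO, 2 were higher (Cd14 and Tlr6) and 0 lower, against 5.67% and 5%. The median log2 ratio of the 10 genes was 0.54 in WT and 0.59 in X-KO (0.43 and 0.47 with Tlr8 at its bound), while the medians over all genes were -0.01 and -0.13. Ratios lay above 0 for 9 of 10 genes in WT and 8 of 10 in X-KO, against 48.9% and 38.9% of all genes. Both counts include Tlr8, which was kept through its DSS arrays alone and for which a level signal was not excluded. The ratios are not independent of each other, since the genes share the arrays, and the counts are a description of these pools.

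**Figure D2:**
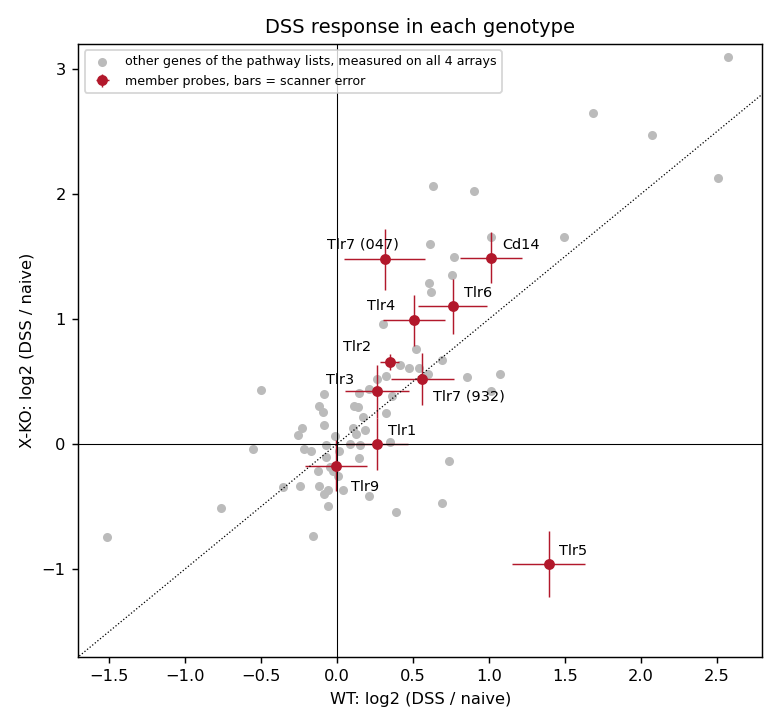
Log2 ratio of DSS over naive in WT (x axis) against X-KO (y axis) for the 10 probes measured on all 4 arrays (red, bars are the scanner SE) and for other genes of the pathway lists measured on all 4 arrays (grey, genes beyond the axes not drawn). The dotted line marks equal ratios and the last digits of the probe identifier tell the Tlr7 probes apart. Tlr5 lies at the lower right (1.39 in WT, -0.96 in X-KO), where the grey points include Irak2 (0.69, -0.47) and Fos (0.39, -0.54), and Cd14, Tlr4, Tlr6 and Tlr2 lie above the line.

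The mean effect of DSS over both genotypes was tested with an additive limma fit over all 22161 genes, which leaves 1 residual degree of freedom. With Benjamini-Hochberg adjustment over all genes, limma called 0 of the 10 genes and 0% of all genes. An unadjusted p under 0.05 was found for 5 of the 10, Tlr8 among them, and for 4053 of the 22161 genes. Among genes measured on all 4 arrays the smallest adjusted values were those of Cd14 (mean log2 1.25, SE 0.21, adjusted p = 0.207) and Tlr6 (0.93, SE 0.19, adjusted p = 0.218). Tlr8 had an adjusted p of 0.205 in the limma fit as designed and 0.272 with trend and robust, but both rest on naive values not well above background, so no mean is given for it. For Tlr5 the opposite responses left a mean of 0.22 with an SE of 0.68 (adjusted p = 0.870). With limma's intensity trend and robust prior the fit called 7.29% of all genes, and Cd14 (adjusted p = 0.00728) and Tlr4 (adjusted p = 0.0470) among the 10. Restricted to probes well above background on all 4 arrays it called 6.58%, and Cd14 (adjusted p = 0.0251) and Tlr6 (adjusted p = 0.0405). With normexp background correction it called 0.641% of all genes and 0 of the 10 (Cd14 adjusted p = 0.0777). Cd14 was thus called under 2 of these 3 alternatives. It was not called in the fit as designed or under any of the further settings tried.

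Naive X-KO colon was compared with naive WT colon to see how the knockout bears on the receptors without injury. None of the 9 genes measured was 2-fold higher or lower (0 of 9, against 1.13% and 1.04% of all genes). The largest ratios were those of Tlr5 (log2 0.52, scanner SE 0.25), Tlr7 (-0.37, scanner SE 0.20) and Tlr2 (-0.23, scanner SE 0.06). The second measured Tlr7 probe gave 0.09 (scanner SE 0.29). Cd14 differed by -0.04 and Tlr4 by -0.06. The median of the 9 was -0.06, against 0.03 over all genes.

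With DSS, X-KO against WT shares the WT DSS and X-KO DSS arrays with the comparisons above, so its ratios are not independent of them. Tlr5 was 3.56-fold lower in X-KO (log2 -1.83, scanner SE 0.26), the only one of the 10 genes past 2-fold, and 0 were higher (2.2% of all genes were 2-fold lower and 5.06% higher). Tlr6 (log2 0.54), Cd14 (0.44) and Tlr4 (0.42) were higher in X-KO with 95% scanner intervals above 0, reaching down to 0.13, 0.04 and 0.02. Tlr1 was lower (log2 -0.33, scanner interval -0.73 to 0.07). Tlr7 was lower by its kept probe (log2 -0.41, scanner interval -0.81 to -0.01) and higher by its second measured probe (log2 1.25). The ratios of Tlr2 (0.08), Tlr3 (0.03) and Tlr8 (-0.16) changed sign with the scaling, from -0.01 to 0.13, from -0.12 to 0.03 and from -0.26 to 0.02. The median of the 10 genes was -0.01, against -0.09 over all genes. The additive limma fit of genotype called 0 of the 10 (0 with an unadjusted p under 0.05, adjusted p = 0.999 for each, over 862 genes with an unadjusted p under 0.05 in all). With trend and robust it called 7 genes, 0.0316% of all, and 0 of the 10.

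**Figure D3:**
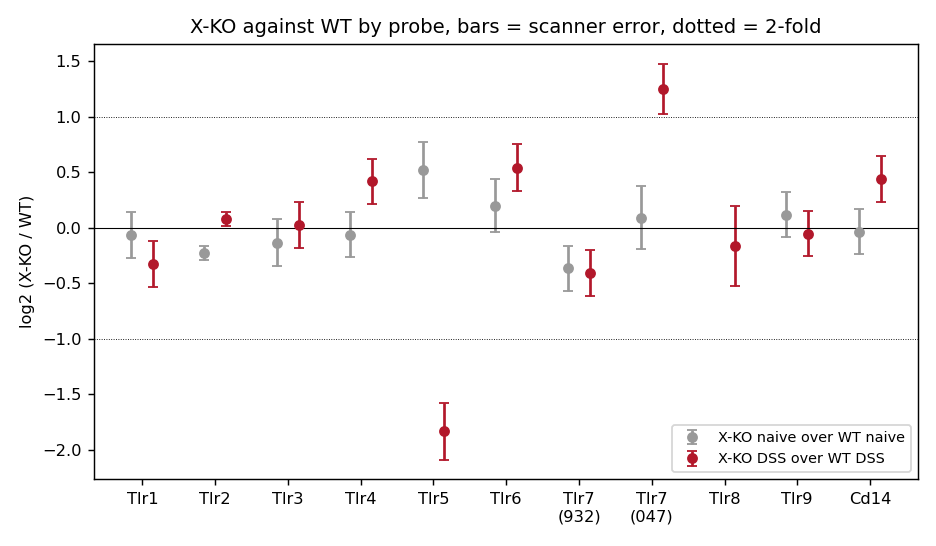
Log2 ratio of X-KO over WT for each measured probe, naive (grey) and with DSS (red), 1 array of a 3-mouse pool per group. Bars are the scanner SE and dotted lines mark 2-fold. With DSS the Tlr5 probe lies below the lower line (-1.83) and 1 Tlr7 probe above the upper line (1.25), while the other Tlr7 probe lies at -0.41.

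Other genes of the Toll-like receptor pathway were counted from lists of known members. Further mouse receptors are Tlr11 and Tlr12, sensors of protozoan profilin, and Tlr13, a sensor of bacterial ribosomal RNA. Of these 3, Tlr11 exceeded its naive level with DSS by at least 2.56-fold in WT and at least 1.14-fold in X-KO (limma with trend and robust, adjusted p = 0.108), and with DSS it was lower in X-KO than in WT (log2 -1.27). The log2 ratio of Tlr12 was -0.12 in WT and 0.30 in X-KO, and that of Tlr13 was 0.15 and 0.41.

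Among 8 measured co-receptors, ligand carriers and chaperones, DSS pools were 2-fold higher for 1 in WT and 3 in X-KO, and lower for 0. Lbp, the plasma protein that carries lipopolysaccharide to Cd14, stood 4.55-fold above naive in WT and 11.7-fold in X-KO (limma with trend and robust, adjusted p = 0.0320). Ly96, the chain that completes the Tlr4 receptor, had log2 ratios of 0.32 and 0.54. Ly86, the partner of the Toll-like receptor homologue Cd180, was 1.87-fold higher in WT and 4.07-fold in X-KO, and the scavenger receptor Cd36 was 1.52-fold and 2.45-fold higher. Hsp90b1 and Cnpy3, which fold Toll-like receptors, had log2 ratios of 0.12 to 0.30. Bpi and Cd180 were not well above background on any array.

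Few genes of the signalling chain were past 2-fold. Of 4 measured adaptors 0 were past it in either genotype. Myd88, used by every Toll-like receptor here but Tlr3, had log2 ratios of 0.52 in WT and 0.76 in X-KO (limma with trend and robust, adjusted p = 0.0395), Tirap 0.21 and 0.44, and Ticam1, used by Tlr3 and Tlr4, -0.12 and -0.34. Of 19 kinases and ubiquitin ligases, 1 was 2-fold lower in WT and 1 higher in X-KO. Traf6, the ubiquitin ligase after Myd88, was lower by 2.84-fold in WT and by 1.67-fold in X-KO (adjusted p = 0.0348 in the same fit), and Map3k8 was 1.55-fold and 4.19-fold higher. Irak2, a kinase-like protein of the Myd88 complex, went in opposite directions, log2 0.69 in WT and -0.47 in X-KO, as Tlr5 did. Traf6 had 3 measured probes and Irak2 had 2, and only the brightest of each is given here. Of 11 transcription factors, 1 was 2-fold higher in each genotype, Irf1 in WT (log2 1.01) and Irf5 in X-KO (log2 1.22).

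Inhibitors of the pathway and its induced targets were counted next. Of 17 measured inhibitors, 5 were 2-fold higher with DSS in WT and 5 in X-KO. Socs1 was 5.69-fold and 4.38-fold higher, Socs3 5.95-fold and 8.57-fold, and Il1rl1, the receptor for Il33, counted here among the inhibitors, 12.5-fold and 29.6-fold. At the low end of the inhibitors, Tnip1 had log2 ratios of -0.16 in WT and -0.73 in X-KO. Of 21 measured induced targets, 16 were 2-fold higher in WT and 18 in X-KO (median log2 2.12 and 4.02 with dim genes at their bounds), and limma with trend and robust called 14 as higher and 0 as lower. The list held 25 targets, and Ifnb1, Il10, Il12a and Il23a were not measured. Il6, Il12b, Cxcl1, Cxcl2, Icam1 and Acod1 were well above background with DSS only. Kept through their DSS arrays, these could not have counted as lower with DSS. Il6 exceeded naive by at least 20.5-fold in WT and at least 62.3-fold in X-KO, the neutrophil attractant Cxcl1 at least 13.8-fold and 41.2-fold, and Il1b 41.0-fold and 57.8-fold. At the low end of the targets, Cd80 had log2 ratios of DSS over naive of -0.50 in WT and 0.43 in X-KO, and Sod2 0.32 and 0.25. With DSS, 14 of the 21 targets were 2-fold higher in X-KO than in WT, among them Saa3 (6.84-fold) and Lcn2 (5.67-fold). Limma as designed called 0 of the genes on any list.

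Other bacterial sensors were measured for comparison. Of 8, 2 were 2-fold higher with DSS in each genotype: Clec7a, a receptor for fungal glucan (4.22-fold and 5.55-fold), and Clec4e (at least 12.6-fold and 61.2-fold). Both are C-type lectins rather than cytosolic sensors. Nod2, a sensor of bacterial muramyl dipeptide, had log2 ratios of 0.54 in WT and 0.61 in X-KO, while Nod1, Nlrc4, Naip5 and Nlrp3 lay between -0.35 and 0.15 in both genotypes.

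**Figure D4:**
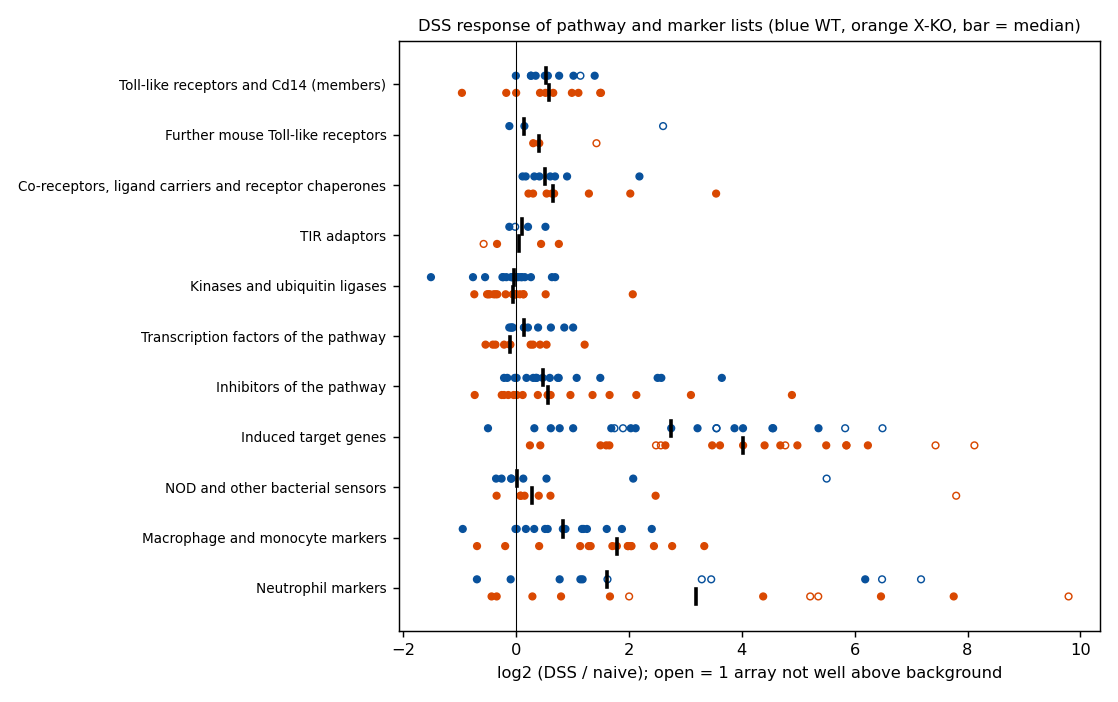
Log2 ratio of DSS over naive for each measured gene of the receptor list, the pathway lists and the macrophage and neutrophil marker lists, in WT (blue, upper row) and X-KO (orange, lower row). Black bars are medians and open circles have 1 array that was not well above background. The 10 receptor and Cd14 genes have medians of 0.54 and 0.59, and the induced targets 2.75 and 4.02 (0.43 and 0.47, and 2.12 and 4.02, with genes not measured on the naive array at their bounds).

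Markers of leukocytes and of other cell types in the tissue differed between the groups. Among 15 macrophage and monocyte markers, 6 were 2-fold higher with DSS in WT and 12 in X-KO, and 10 were 2-fold higher in X-KO than in WT with DSS. Ccr2 and Marco were 3.67-fold and 5.29-fold higher in WT, and 10.1-fold and 6.80-fold in X-KO, while Mertk and Itgam were lower or level (log2 -0.94 and -0.01 in WT). Of 13 neutrophil markers 6, 8, 11 and 12 were well above background in WT naive, X-KO naive, WT DSS and X-KO DSS, and Ngp on none. With DSS, 8 neutrophil markers were 2-fold higher in WT and 7 in X-KO, and 0 were lower, S100a8 exceeding naive by at least 113-fold in WT and by 216-fold in X-KO. Their summed relative signals were 36.0, 43.5, 33.6 and 72.7 in the same order of groups, of which the Csf3r probe alone made up 32.2, 39.2, 19.9 and 29.0. The sum of 17 epithelial markers, all well above background on every array, was 732, 852, 791 and 603, and that of 8 smooth muscle markers was 307, 299.9, 291 and 177. The Krt8 probe alone made up 100, 122, 121 and 100 of the epithelial sum. Of the 17, 2 were 2-fold lower with DSS in WT and 3 in X-KO, and 0 were higher. Slc26a3 (log2 -1.20 in WT and -2.01 in X-KO) and Lgr5 (-1.43 and -1.57) were lower in both genotypes, while Cdx2 (0.61 and 0.13) was higher in both. The sum of 6 measured of 7 B cell markers was 1.24, 2.11, 1.28 and 2.88. For 9 measured of 10 dendritic cell markers it was 37.1, 42.6, 30.8 and 36.7, mostly from Siglech (35.6, 40.8, 28.4 and 32.3), while 2 of the 9 were 2-fold higher with DSS in WT and 3 in X-KO, and all 9 lay above WT in X-KO with DSS (median log2 0.79). Pancreatic acinar markers, digestive enzymes foreign to the colon wall, were 2-fold higher with DSS for 7 of 8 in each genotype, Amy2a5 at least 806-fold in WT and at least 272-fold in X-KO. Their sum was 7.63, 6.73, 30.7 and 8.50, of which Cela1 made up 7.42, 6.54, 6.19 and 2.27. Adipocyte markers (5 measured of 6) summed to 5.58, 6.16, 29.0 and 29.8, and limma with trend and robust called all 5 as higher with DSS. Erythrocyte markers (5 measured of 6) summed to 4.79, 3.97, 11.8 and 45.0. Of 8 endothelial markers, 0 were 2-fold higher with DSS in WT and 4 in X-KO, with sums of 5.91, 5.74, 6.01 and 6.96. The part of these cell populations in the receptor values was not tested.

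Colon identity and the targeted gene were checked on the arrays. All 17 epithelial and 8 smooth muscle markers were measured on every array, and Pla2g10 gave relative signals of 15.8 in WT naive, 19.0 in WT DSS, 1.69 in X-KO naive and 0.993 in X-KO DSS. Whether its probe lies in the deleted part was not given in the sources used here. Between 67.7% and 70.4% of spots were well above background and 0 were saturated. The SD between repeat spots of a probe (log2) had a median of 0.0569 to 0.0631. The number of arrays, 1 per group, limits the precision of all values.

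Genes whose 4 values ran most like a receptor's were named as the 3 nearest of 19320 genes by Euclidean distance of log2 values centred on their mean. Those nearest to Cd14 were Ecscr (distance 0.050), Tac1 (0.052) and Cd47 (0.078), and those nearest to Tlr4 were Fam20c (0.019), Bmp7 (0.024) and Lbh (0.065). For Tlr6 they were Crlf2 (0.056), Prss16 (0.10) and Ms4a7 (0.11), and for Tlr5 AU046084 (0.17), A730021G18Rik (0.20) and Lce3b (0.31). With 4 arrays, likeness of this kind is a description.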

How the data were processed

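Colon RNA of 4 pools of 3 mice was hybridised to single-colour Agilent arrays. The deposited scanner files give spot intensity after background subtraction and detrending, made with Agilent Feature Extraction 11.5.1.1 per the submitters' processing notes. A deposited series table of signal, used as an alternative, equals that intensity over 0.994 to 0.998 times the array's 75th percentile. Control spots (1377) and outlier spots (129 to 136) were left out, log2 intensity was set relative to the 75th percentile, and spots of a probe were averaged. Each gene was taken by its brightest probe among those that any array measured well above background (28733 of 39429 probes, 22161 genes). Names came by accession (27502 probes), symbol (3549), older symbol (404) or from the file (7974), through a RefSeq table of GRCm38.p6 used for names only.

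Log2 ratios of array pairs carry no test. A gene counted at 2-fold when well above background on the brighter array. Where the dimmer array did not measure it, the higher of its own signal and the lowest well-measured signal there was used, written as at least. List medians used measured values unless bounds are named. Mean effects were tested with limma 3.58.1 (R 4.3.3, lmFit and eBayes), a step tested on simulated data. Of each pathway list the rule named up to 3 genes with the highest and 3 with the lowest mean DSS ratio and up to 2 at each end of X-KO over WT with DSS, and of each marker list 2 at each end. Only part of the genes so named is given in the text, more from the high ends than from the low ends. The T cell markers are not given. The members and lists were chosen with earlier results of these data known. Alternatives were other scalings, background corrections, filters, probe rules, fold thresholds and fit settings. Promoters of Tlr4, Tlr7 and Cd14 were not analysed here.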

Additional observations from a re-analysis of the deposited data

Results flagged for a closer look

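Tlr5 was singled out because its signal moved in opposite directions with DSS in the genotypes, up in the WT pool (log2 1.39) and down in the X-KO pool (log2 -0.96). The difference, X-KO minus WT, was -2.35 on the log2 scale, and this difference was not tested, because each group was 1 array.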

How the results depend on the processing

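Of 476 ratios of the 10 genes under alternatives, 457 moved by no more than the scanner error and 19 by more. No ratio past 2-fold changed sign. Among smaller ratios the sign depended on scaling or background correction for Tlr2 and Tlr3 (X-KO over WT with DSS), Tlr8 (X-KO over WT, naive and with DSS) and Tlr9 (WT with DSS). The count past 2-fold with DSS in WT was 1 (Tlr5) with quantile normalization and with normexp and quantile normalization together, against 2, and 0 at a 3-fold threshold, while it was 3 without bounds (Tlr8 joined) and at 1.5-fold (Tlr6 joined). In X-KO it was 1 (Cd14) with normexp and with normexp and quantile normalization together, 5 at 1.5-fold (Cd14, Tlr2, Tlr4 and Tlr6 higher, Tlr5 lower) and 0 at 3-fold. It was 3 with median scaling and with quantile normalization, where Tlr4 joined Cd14 and Tlr6, with all probes (a Tlr7 probe joined) and without bounds (Tlr8 joined). The shares of all genes past 1.5-fold and 3-fold are not given here, so the counts at those thresholds have no background beside them. X-KO over WT with DSS gave 2 when all probes were counted (a Tlr7 probe higher, Tlr5 lower), against 1. The limma count for DSS was 2 (Cd14 and Tlr6) when every array had to measure the probe well above background and 2 (Cd14 and Tlr4) with trend and robust, against 0. The other 76 of 86 comparisons of this kind stayed within 1.5 times the count as designed or, for values, within the scanner error. With normexp the Tlr5 ratios shrank to 1.02 in WT, -0.65 in X-KO and -1.26 for X-KO over WT with DSS. Median scaling moved the median of all genes in WT from -0.01 to 0.13, and the share of 2-fold genes that were higher there from 40.1% to 53.3%, while the median of the 10 genes moved from 0.54 to 0.68. Normexp with quantile normalization moved that share in X-KO from 53.2% to 63.9%. Over all genes limma called 142 for DSS with normexp, 35 with no filter on dim probes, 1271 with the filter on all 4 arrays, and 1615 with trend and robust, against 0. Dim probes (Tlr5, Tlr6, Tlr8 and the second Tlr7 probe) depend most on the background correction by construction. No paired analysis was possible because each group is 1 array and the labels carry no replicate numbers, and leaving out an array would leave no residual degree of freedom.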
